A study of Mus musculus with 13 samples.

Results

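Late reprogramming was examined in 6C-Secondary mouse embryonic fibroblasts (MEFs) kept on doxycycline (Dox), by setting the arrays of days 16 and 21 against those of days 8 and 11. These 4 arrays, 2 against 2, were chosen by line and day and not by any measured value, out of 13 arrays in the study. Reprogramming turns a fibroblast into an induced pluripotent stem (iPS) cell by forcing it to express a few transcription factors, and in these cells Dox switches on the promoter that drives them. All 4 arrays came from the 6C line, treated with Dox at 1.5 µg per ml in mouse embryonic stem cell medium. The other arrays were of 6C at days 0, 2 and 5, a second line called 1B, parental MEFs, and secondary and primary 6C iPS cells.

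Each day had 1 array, the labels name no repeat cultures, and the days inside a group differ, so the spread within a group holds both array error and change with time. The arrays measured bulk RNA, in which fewer cells of a type and less RNA per cell cannot be told apart. Array names gave runs: days 16 and 11 shared run 2, day 21 was in run 1 and day 8 in run 4. Day 16 minus day 11 is therefore given as the difference within a run. The name of the day 8 array speaks of the following day, and the sample label was followed. Levels are log2 values from robust multi-array averaging (RMA), which cannot be compared between genes.

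The passage from fibroblast to iPS cell is usually described as a loss of mesenchymal genes, a gain of epithelial ones, and a late gain of the endogenous pluripotency network. That network centres on Oct4, Sox2 and Nanog, and genes such as Dppa4, Zfp42 and Lin28a join it late. Interferons are signalling proteins released in response to viruses and nucleic acids. They act through JAK kinases and STAT factors on genes whose promoters carry the interferon-stimulated response element (ISRE).

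Markers were checked first. The pluripotency marker Nanog stood at 11.96 and 12.42 at days 16 and 21, against 10.12 and 10.69 at days 8 and 11, and at 5.54 at day 0. The fibroblast marker Col1a1, a collagen chain, stood at 12.42 and 11.87, against 11.95 and 12.40, and at 9.22 in primary iPS cells. The late arrays thus showed a pluripotency marker and this collagen gene side by side. Col1a1 does not stand for all fibroblast genes. The fibroblast matrix list had a median level of 9.94 and 9.37 late, against 11.10 and 10.96 in the middle. In secondary and primary iPS cells that median was 10.01 and 7.09. The fibroblast surface list had a median level of 8.84 and 7.85 late, against 9.92 and 9.19. The endothelial markers Cdh5, Kdr and Tie1 lay between 4.73 and 6.68 on the 4 arrays and between 4.99 and 6.15 at day 0. The keratinocyte marker Krt5 lay between 5.92 and 6.25, near its day 0 level of 5.77, but the keratinocyte list as a whole had a median level of 7.24 and 6.34 at days 16 and 21, against 7.65 and 7.97 at days 8 and 11, and of 5.51 at day 0.

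The decreases were larger and better annotated than the increases. A cluster (the probes of a gene) was called separated when both late arrays lay more than 1 log2 unit above, or below, both middle arrays; this is a description with no test. Of 23332 clusters 155 were separated higher (0.664%) and 341 lower (1.46%). Of the higher ones 33 had a single gene symbol, and of the lower ones 272. The median of their mean levels over all arrays was 4.38 for the higher and 6.67 for the lower ones, and their median differences were 1.65 and 2.17 in size. A gap of over 2 log2 units was seen for 6 higher and 78 lower clusters. Groups that merely did not overlap were common, with 4284 clusters higher (18.4%) and 4271 lower (18.3%). Within run 2, day 16 was over 2-fold above day 11 for 1244 clusters (5.33%) and over 2-fold below for 1218 (5.22%).

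Almost nothing passed a test. With limma and Benjamini-Hochberg adjustment over all clusters, 0 clusters were called higher (0%) and 1 lower (0.00429%), at an adjusted p under 0.05 and a difference of 1 log2 unit, where 699 higher and 756 lower had an unadjusted p under 0.05. The spread came from all 13 arrays in their groups. Parental MEFs and both lines at day 0 formed 1 group, and secondary and primary iPS cells another. Each SE and p-value of this fit therefore also holds differences between lines and cell sources. The cluster called has no gene symbol in the annotation used here and stood at 3.04 and 2.43 at days 16 and 21, against 6.10 and 6.13 at days 8 and 11 (difference -3.38, SE 0.28, adjusted p = 0.0177). On the remaining 9 arrays it lay between 2.21 and 3.34. A cubic curve of day over the 6C series, with the iPS array at day 30, gave 10 other calls: Tcl1 and Dnmt3l higher, and Nt5e, Tbx15, Sting1, Prelp, Svep1, Gsap, Lrrc17 and Clec5a lower. The iPS level also shapes that curve, so its calls do not rest on the 4 arrays compared alone. Unless it is said otherwise, no gene below passed limma's test, and its value is a description of 4 arrays.

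**Figure D1:**
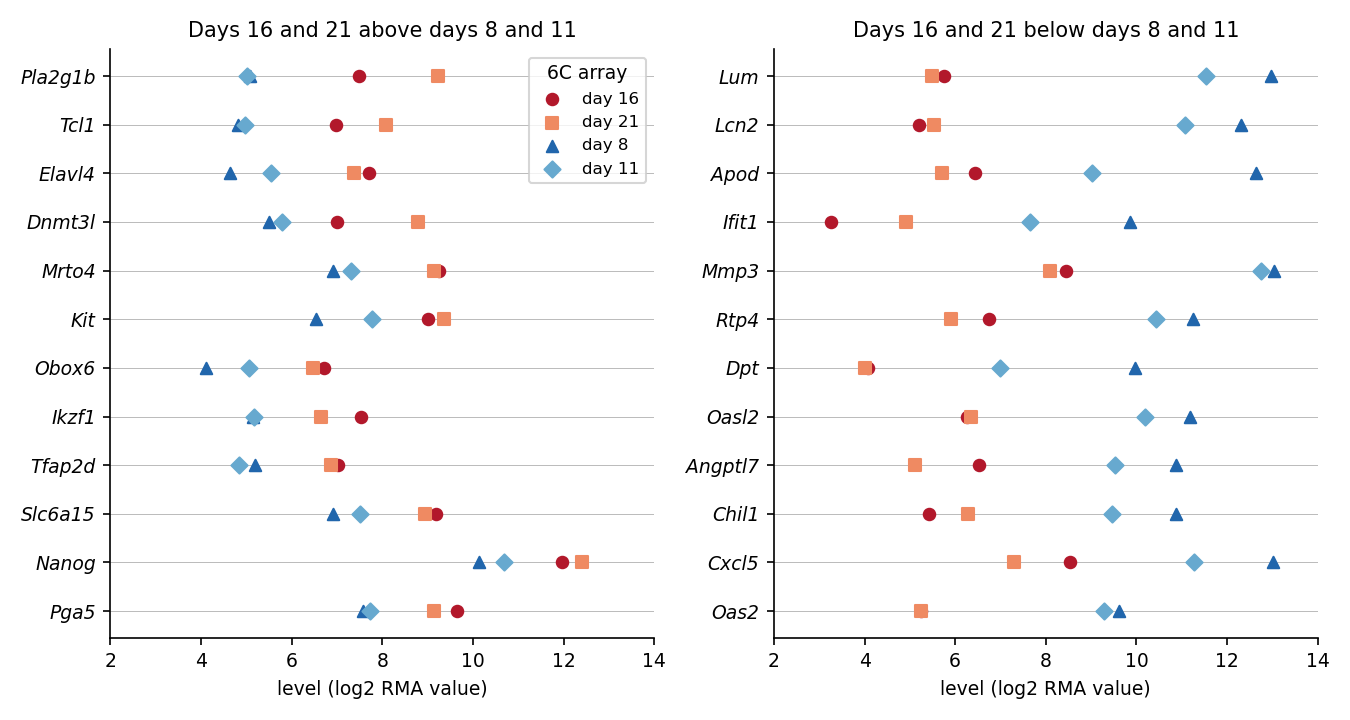
Level (log2 RMA value, x axis) of the 12 named genes with the largest difference each way among separated clusters, 1 point per array, days 16 and 21 in red tones and days 8 and 11 in blue tones. Lum shows the widest shift, with 5.75 and 5.48 at days 16 and 21 against 12.97 and 11.52 at days 8 and 11.

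Interferon-stimulated genes formed the group that stood lowest late relative to the middle. Of 26 measured members of the interferon response list 20 were separated lower and 0 higher, beside 1.46% of all clusters, and all 26 were lower without overlap, beside 18.3%. The median difference was -2.85 log2 units, where that of all clusters was 0.02. Ifit1, which binds viral RNA, stood at 3.25 and 4.92 at days 16 and 21, against 9.86 and 7.66 at days 8 and 11 (-4.67, SE 1.54, adjusted p = 0.585). Day 16 lay near the 6C day 0 level of 3.56, day 21 lay over 1 log2 unit above it, and both middle arrays lay far above it. Oas2, an enzyme that makes the activator of RNase L, stood at 5.24 and 5.24, against 9.62 and 9.28 (-4.21, SE 0.55, adjusted p = 0.109), the lowest adjusted p of the list.

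Other members followed the same arrays. Rtp4, a chaperone gene of receptor transport, stood at 6.75 and 5.90 late, against 11.24 and 10.44. Oasl2 stood at 6.27 and 6.34, against 11.18 and 10.19. Trim30a stood at 4.87 and 4.37, against 8.98 and 8.12. For each of the 3 genes the highest late array lay over 3 log2 units below the lowest middle array. The guanylate-binding protein gene Gbp3 stood at 6.43 and 5.87, against 10.85 and 8.97, and the chemokine gene Cxcl10 at 5.50 and 5.78, against 10.42 and 8.16. In these last genes day 8 stood well above day 11. The smallest differences were those of Ifi35 (-0.71) and Bst2 (-0.72), both without overlap.

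The level of the list also varied outside these days. Its median level was 6.27 at day 16 and 5.84 at day 21, against 9.48 at day 8 and 7.97 at day 11. It was 5.61 in 6C at day 0 and 7.33 in parental MEFs, so the late arrays lay near the day 0 array and below the parental one. At days 2 and 5 it was 6.07 and 7.97, so day 5 already had the level of day 11. Within run 2, the median of day 16 minus day 11 was -1.99, and 20 of 26 members were over 2-fold lower, beside 5.22% of all clusters. With run as a fixed block the median difference was -1.69.

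Several of these genes carry the ISRE core near their start. The letters GAAANNGAAA were searched on both strands in RefSeq promoter windows, 250 bases before to 50 after each start, and were present in 11 of 19 interferon response genes with a window (57.9%), against 1079 of 27025 genes (3.99%). The share was 20% for the interferon pathway list (4 of 20). It was 16.7% for the macrophage list (3 of 18) and 5.88% for the inflammatory list (1 of 17). Sites of 4 interferon response genes and of the pathway gene Stat2, all separated lower, are shown as examples. Other genes with a match, such as Trim30a and Ddx60, are not shown. Capitals mark the core, which reads TTTCNNTTTC on the other strand; each sequence runs in the direction of its gene, and matches can overlap. Coordinates are those of GRCm38.p6, and a match is no evidence of binding.
Ifit1 (chr19:34640796-34640821, plus strand): agtctcagTTTCAGTTTCtcactgct
Gbp3 (chr3:142559991-142560016, plus strand): ggacacagTTTCAGTTTCtatttccc
Cxcl10 (chr5:92349085-92349110, minus strand): acgctttgGAAAGTGAAActtacctc
Irgm1 (chr11:48871427-48871452, minus strand): aagaaataGAAACCGAAActgattct
Stat2 (chr10:128270268-128270293, plus strand): caccctggTTTCAGTTTCctttccct
Irgm1, an immunity GTPase gene, stood at 8.12 and 6.09 late, against 11.19 and 9.37. Both middle arrays lay above both late ones, and 6C at day 0 had 9.24, just below the lower of the middle arrays.

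Regulators of the interferon response showed smaller differences. Of 22 measured pathway genes 5 were separated lower and 0 higher, and 19 were lower without overlap. Of all clusters 1.46% were separated lower and 18.3% were lower without overlap. The median difference of the pathway genes was -0.99 (-0.47 with run as a fixed block). The factor Irf7, an amplifier of interferon transcription, stood at 5.93 and 6.33 at days 16 and 21, against 10.59 and 9.76 at days 8 and 11 (-4.04, SE 0.84). The RNA sensor gene Ifih1, which encodes MDA5, stood at 5.60 and 5.03, against 8.53 and 7.78. In both genes the late arrays lay near the day 0 array, at 6.24 for Irf7 and 5.45 for Ifih1. Irf9 and Stat2, subunits of the complex that binds the ISRE, differed by -2.30 and -1.89, and the sensor Dhx58 by -2.14. The interferon gene Ifnb1 itself lay between 4.35 and 5.02 on the 4 arrays, and the groups overlapped. Sting1, a DNA-sensing adaptor, stood at 9.13 and 7.79, against 10.63 and 9.97, and was among the calls of the cubic curve. Without one of the arrays the separated pathway genes numbered 9 (day 16), 6 (day 21), 5 (day 8) and 11 (day 11); such counts can only grow when an array is left out.

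Inflammatory genes stood lower in the same arrays. Of 21 measured members 12 were separated lower and 18 were lower without overlap, beside 1.46% and 18.3% of all clusters. The median difference was -1.72. Lcn2, an iron-binding acute-phase protein gene, stood at 5.20 and 5.54 late, against 12.30 and 11.08 in the middle (-6.32, SE 1.10, adjusted p = 0.163). Its middle arrays lay over 5 log2 units above both late ones and well above parental MEFs, at 8.34. The neutrophil chemokine gene Cxcl5 stood at 8.54 and 7.29, against 13.02 and 11.26 (-4.22, SE 0.70, adjusted p = 0.132). The cytokine gene Il6 stood at 4.85 and 3.19, against 6.62 and 7.28, and the interleukin-1 receptor antagonist gene Il1rn at 7.66 and 6.46, against 10.43 and 9.55. The alarmin gene Il33 differed by -2.61 and the acute-phase gene Saa3 by -2.70. Il1b, a main inflammatory cytokine gene, lay between 4.82 and 5.02 on the 4 arrays, and Ptgs2, which encodes cyclooxygenase 2, stood at 11.30 and 8.21, against 9.98 and 10.53. The last gene shows that the late days did not always sit together, with day 16 the highest of the 4 arrays and day 21 the lowest.

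Macrophage markers moved with these groups, and their part in the result was not tested. Of 26 measured markers 14 were separated lower and 24 were lower without overlap, beside 1.46% and 18.3% of all clusters. The median difference was -1.50. The median level was 5.66 and 5.24 at days 16 and 21, against 7.61 and 7.04 at days 8 and 11. At day 5 the median level was also 7.04. The complement gene C1qa stood at 6.07 and 4.58, against 9.03 and 7.31, and the lysosomal protease gene Ctss at 6.66 and 5.18, against 10.56 and 8.33. Both late arrays lay near or below the day 0 levels of C1qa (6.03) and Ctss (6.98). Csf1r, the macrophage colony-stimulating factor receptor gene, stood at 6.13 and 5.59, against 7.73 and 7.18, and Ptprc, the pan-leukocyte gene, at 4.62 and 4.02, against 6.15 and 5.26. Cd68 stood at 9.18 and 9.44, against 10.54 and 10.72, and at 9.63 in primary iPS cells, close to its late levels. Laptm5 was the single marker higher without overlap, at 11.21 and 11.69 against 10.71 and 11.20, and stood at 11.48 in primary iPS cells. Antigen presentation genes had a median difference of -0.99 (-0.45 with run as a fixed block). Of 12 measured, Psmb8, Tapbp and Tap1 were separated lower and 9 were lower without overlap, beside the same shares of all clusters. Leaving out 1 array gave 5 (day 16), 3 (day 21), 3 (day 8) and 7 (day 11) separated genes, counts that can only grow.

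**Figure D2:**
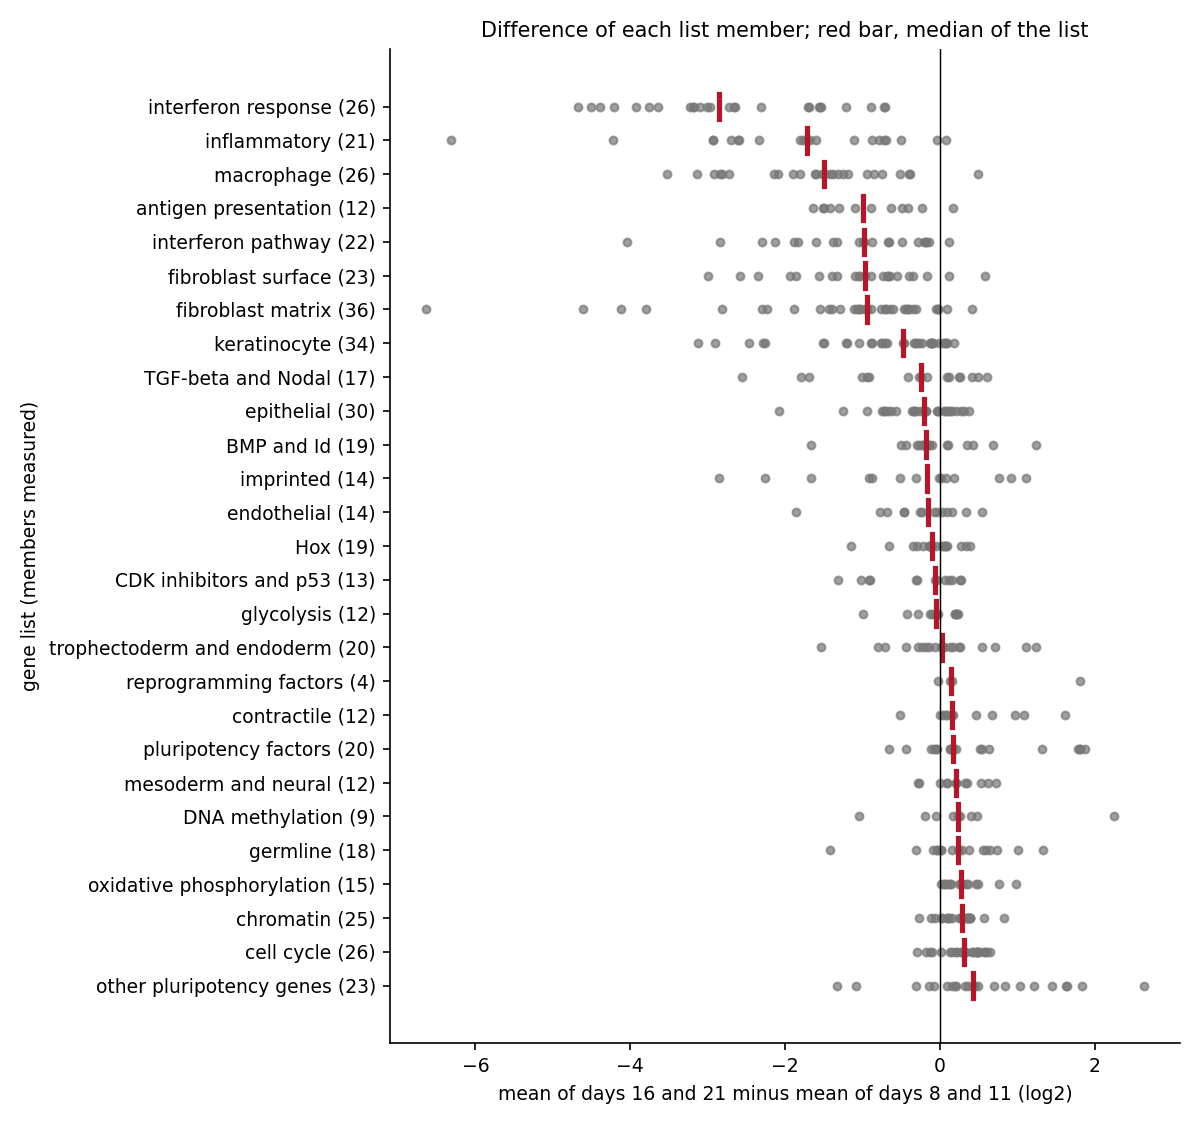
Difference of each measured list member (x axis, mean of days 16 and 21 minus mean of days 8 and 11, log2), 1 row per gene list with its number of members, red bars marking medians. The interferon response list lies lowest with a median of -2.85, and the other pluripotency genes highest with 0.43.

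Matrix genes split into a part that stood much lower late and a part that hardly differed. Of 36 measured matrix genes 8 were separated lower and 23 were lower without overlap, beside 1.46% and 18.3% of all clusters. The median difference was -0.94. Lum, a collagen-organising proteoglycan gene, stood at 5.75 and 5.48 at days 16 and 21, against 12.97 and 11.52 at days 8 and 11 (-6.64, SE 1.68, adjusted p = 0.399), the largest difference of any separated cluster. Dcn, the related gene for decorin, stood at 8.91 and 9.22, against 13.32 and 13.06. The matrix protease genes Mmp3 and Mmp13 stood at 8.45 and 8.10, against 13.03 and 12.75, and at 7.80 and 6.82, against 11.26 and 10.96. In all 4 genes the late arrays lay over 2 log2 units below every middle array. The interstitial collagens differed among themselves: Col3a1 stood at 10.23 and 10.15, against 12.55 and 11.59, while Col1a1 and Col1a2 differed by -0.03 and -0.41. Fn1, the fibronectin gene, was the single member higher without overlap, at 12.65 and 12.68 against 12.28 and 12.24.

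The matrix result changed when run was put in the fit. With run as a fixed block the median difference of the matrix list was 0.03, and that of the fibroblast surface list was 0.05, so neither stood lower on balance in that fit. Within a group, however, arrays of different runs also differed in day or cell source, for example secondary and primary iPS cells. The block therefore cannot separate run from these. Within run 2 the medians of day 16 minus day 11 were -0.39 and -0.41. Over 2-fold lower were 10 of 36 and 4 of 23 members, beside 5.22% of all clusters. The separated matrix genes numbered 18 without day 16, 10 without day 21, 8 without day 8 and 15 without day 11. Such counts can only grow when an array is left out, so their rise shows no dependence on an array. Ogn, the gene of the small proteoglycan osteoglycin, differed by -2.82, with 10.92 at day 8 and 7.23 at day 11, so much of its difference rested on day 8.

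Among 23 fibroblast surface genes and factors 3 were separated lower and 15 were lower without overlap, beside 1.46% and 18.3% of all clusters. The median difference was -0.97. Nt5e, the gene of the mesenchymal surface enzyme CD73, stood at 8.54 and 7.28 at days 16 and 21, against 11.10 and 10.72 at days 8 and 11 (-3.00, SE 0.59, adjusted p = 0.233), and was among the calls of the cubic curve. Pdgfra, a platelet-derived growth factor receptor gene, stood at 8.13 and 7.80, against 11.13 and 9.97. Il1r1, the interleukin-1 receptor gene, stood at 8.78 and 8.06, against 11.21 and 10.35. Each late array of the 3 genes lay below each middle array, with day 21 the lowest. The mesenchymal factor gene Twist1 differed by -1.39, Thy1, a fibroblast surface marker, by -0.35 and Vim, the vimentin gene, by -0.17. The count of 3 was 13 without day 16, 4 without day 21, 3 without day 8 and 10 without day 11. It cannot fall when an array is left out. The lipocalin gene Apod (6.44 and 5.71, against 12.64 and 9.02), the matrix gene Dpt (4.08 and 4.02, against 9.98 and 6.98), Angptl7 (6.53 and 5.12, against 10.87 and 9.53) and the chitinase-like gene Chil1 (5.42 and 6.28, against 10.87 and 9.47) completed the 12 largest decreases. For all 4 of them parental MEFs had 8.86 or more, and 6C at day 0 lay lower than parental MEFs by over 2 log2 units.

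Keratinocyte and epithelial genes were mixed. Of 34 keratinocyte genes 5 were separated lower and 13 were lower without overlap, beside 1.46% and 18.3% of all clusters. The median difference was -0.47. Sprr1a, a cornified envelope gene, stood at 8.10 and 7.58, against 11.73 and 10.20, and the suprabasal keratin gene Krt1 at 5.79 and 5.63, against 8.82 and 8.41. Aqp3, an epidermal water channel gene, stood at 9.68 and 10.02, against 12.52 and 11.68 (-2.25, SE 0.37, adjusted p = 0.132). The crosslinking enzyme gene Tgm3 and the cornified envelope gene Cnfn were the other two separated members, with differences of -2.47 and -2.29. The late arrays of Sprr1a, Krt1 and Aqp3 lay below both middle arrays and above parental MEFs. Krt14, a basal keratin gene, stood at 8.38 and 5.92, against 8.37 and 8.34, so day 21 alone was low. Dsg3, a desmosomal cadherin gene, stood at 9.37 and 7.39, against 7.07 and 9.62, and its groups overlapped. Without 1 array the separated members numbered 13 (day 16), 5 (day 21), 7 (day 8) and 7 (day 11), counts that can only grow. Of 30 epithelial genes 1, Krt19, was separated lower, beside 1.46% of all clusters. Without overlap 11 were lower and 1 higher, beside 18.3% and 18.4%, and the median difference was -0.21. Within run 2 the median of day 16 minus day 11 was -0.41, with 4 members over 2-fold lower, beside 5.22% of all clusters. Prss8, a membrane serine protease gene, differed by -1.25, the simple keratin gene Krt18 by -0.94 and the tight junction gene Cldn3 by -0.75. Epcam stood at 12.15 and 12.30, against 12.40 and 12.48, and Cdh1, the E-cadherin gene, at 11.67 and 11.12, against 10.86 and 11.99, and the groups of Cdh1 overlapped.

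Signalling and imprinted genes gave a few separated members, where 1.46% of all clusters were separated lower. Of 17 genes of the TGF-beta and Nodal list, Tgfbi, a matrix protein gene induced by TGF-beta, differed by -2.56 and the co-receptor gene Tgfbr3 by -1.80, both separated lower; the list's median was -0.24. With run as a fixed block the medians of this list, the BMP and Id list and the imprinted list were 0.17, 0.20 and 0.34, against -0.24, -0.18 and -0.16 without it. In the BMP and Id list the ligand gene Bmp4 was separated lower, at 6.33 and 6.28 against 8.56 and 7.39, while the ligand gene Bmp7 stood at 7.52 and 7.47, against 5.81 and 6.69. Bmp4 stood at 8.91 in 6C at day 0, at 8.60 in secondary iPS cells and at 10.87 in primary iPS cells. Its late levels lay below each of these. Of 14 imprinted genes Dlk1, Igf2 and H19 were separated lower. Dlk1, a Notch-like ligand gene, stood at 7.66 and 7.17, against 10.60 and 9.93, the growth factor gene Igf2 at 9.07 and 8.84, against 11.46 and 10.97, and the non-coding RNA gene H19 at 11.35 and 11.97, against 13.51 and 13.14. Phlda2, Slc38a4 and Plagl1 were higher without overlap, by 1.11, 0.76 and 0.92. These 3 of 14 genes are a share near the 18.4% of all clusters. Lower without overlap were 6, beside 18.3%.

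**Figure D3:**
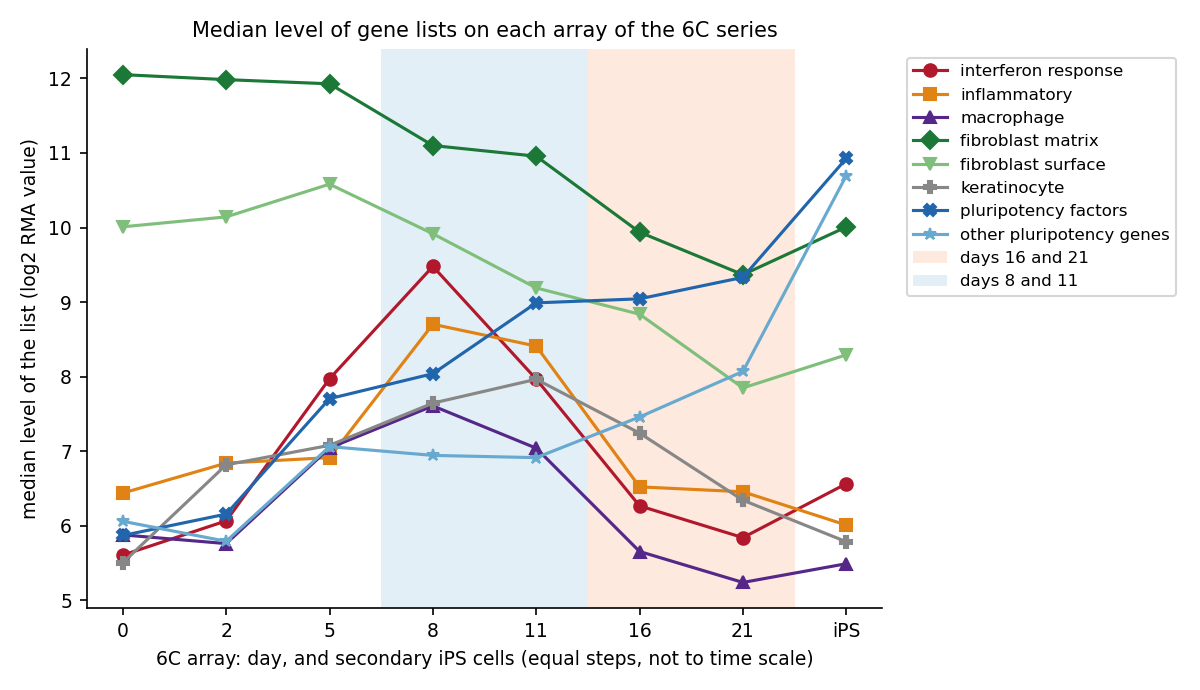
Median level (log2 RMA value, y axis) of 8 gene lists on each array of the 6C series from day 0 to day 21 and in secondary iPS cells, with days 16 and 21 shaded red and days 8 and 11 blue; heights of different lists cannot be compared. The interferon response median peaks at day 8 with 9.48 and lies at 6.27 and 5.84 on the late arrays, while the other pluripotency genes stand at 7.46 and 8.07 late against 6.94 and 6.91.

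A few pluripotency genes stood higher late. Of 20 transcription factor genes Nanog alone was separated higher, 7 were higher without overlap beside 18.4% of all clusters, 0 were lower without overlap, and the median difference was 0.16. Within run 2 the median of day 16 minus day 11 was -0.08. Over 2-fold higher was 1 factor and lower 1, beside 5.33% and 5.22% of all clusters. Nanog stood at 11.96 and 12.42 at days 16 and 21, against 10.12 and 10.69 at days 8 and 11 (1.78, SE 0.60, adjusted p = 0.600), and at 13.12 and 13.22 in secondary and primary iPS cells. All 4 arrays follow the order of their days. Its promoter window holds the octamer core ATGCAAA, the site of Oct4, on the reverse strand, shown in capitals in the direction of the gene (GRCm38.p6, RefSeq).
Nanog (chr6:122707406-122707428, plus strand): cagcttctTTTGCATtacaatgt
The core was found, on either strand, in 3 of 17 pluripotency factor genes with a window (17.6%) and in 1416 of 27025 genes (5.24%), which is no evidence of binding. Among the other pluripotency genes with a window 0 of 13 had it, and among inflammatory genes 2 of 17 (11.8%).

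The other factors differed in which array was highest. Sox2 stood at 7.48 and 9.45, against 6.34 and 6.98, and remained far below the 13.03 and 12.63 of secondary and primary iPS cells. Otx2, a factor of primed pluripotency and the forebrain, differed by 1.88, and Utf1, a chromatin-bound factor gene, stood at 8.90 and 10.28, against 6.88 and 8.67. In these 3 genes day 21 was the highest array, and day 16 lay less than 1 log2 unit above day 11. Esrrb, an orphan nuclear receptor gene, stood at 9.12 and 8.96, against 6.53 and 8.92, so day 11 already had the late level. Zfp42, a marker of naive stem cells, stood at 7.57 and 8.25, against 7.13 and 7.66, and at 11.61 in secondary iPS cells. Tfcp2l1 and Nr0b1, factors of the naive state, differed by -0.66 and -0.44, and the groups overlapped. Without 1 array the separated factors numbered 4 (day 16), 1 (day 21), 1 (day 8) and 5 (day 11), counts that can only grow.

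**Figure D4:**
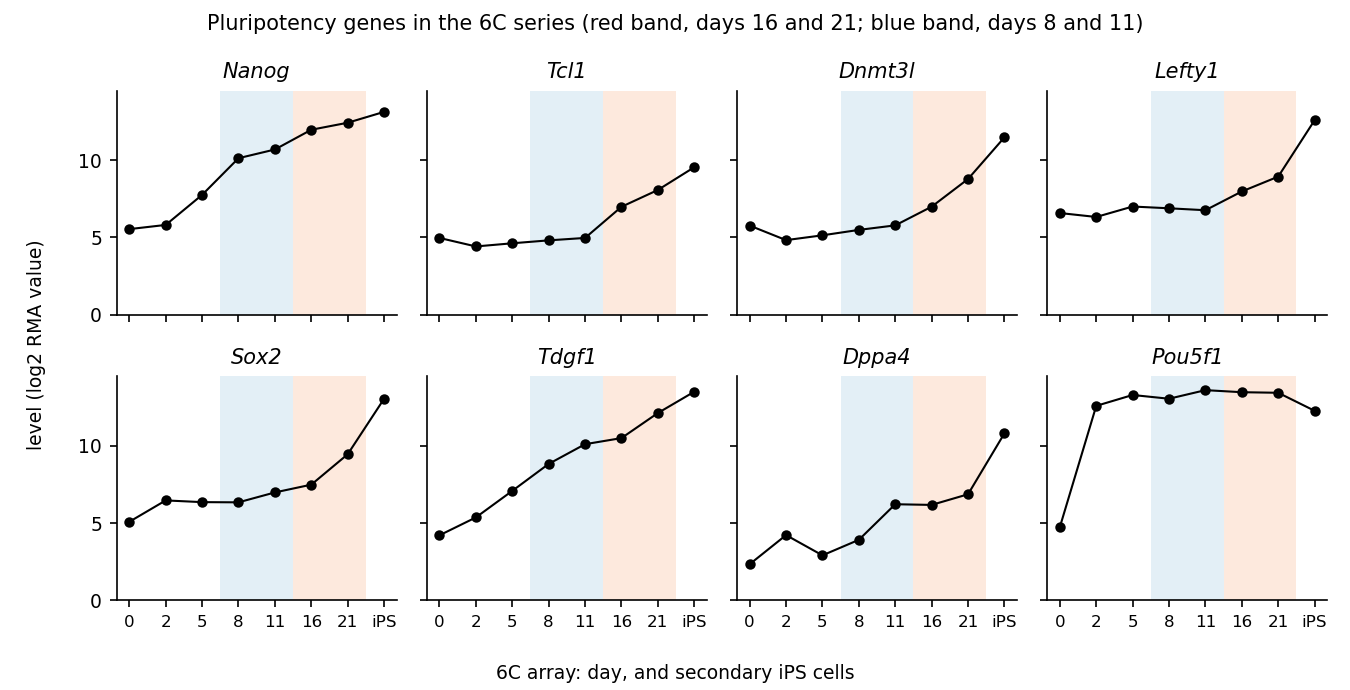
Level (log2 RMA value, y axis) of 8 genes on each array of the 6C series from day 0 to day 21 and in secondary iPS cells, with days 16 and 21 banded red and days 8 and 11 blue. Tcl1 stands at 6.98 and 8.07 at days 16 and 21 against 4.81 and 4.97 at days 8 and 11, while Pou5f1 lies between 13.04 and 13.59 on these 4 arrays.

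Of 23 other pluripotency genes Tcl1 and Lefty1 were separated higher, beside 0.664% of all clusters. Without overlap 10 were higher and 3 lower, beside 18.4% and 18.3%, and the median difference was 0.43. Within run 2 the median of day 16 minus day 11 was 0.06. Over 2-fold higher were 3 genes and lower 2, beside 5.33% and 5.22% of all clusters. Tcl1, a co-activator of AKT, stood at 6.98 and 8.07, against 4.81 and 4.97 (2.63, SE 0.46, adjusted p = 0.163). Both middle arrays lay near the day 0 level of 4.97, and both late arrays lay between it and the 9.54 of secondary iPS cells. It was called higher by the cubic curve. Lefty1, a secreted inhibitor of Nodal, stood at 7.97 and 8.93, against 6.89 and 6.76, and Lin28a, an RNA-binding repressor of let-7, at 7.46 and 8.03, against 6.64 and 6.41. Tdgf1, a Nodal co-receptor gene, stood at 10.49 and 12.11, against 8.82 and 10.10, and the glycine cleavage enzyme gene Gldc at 10.21 and 10.35, against 7.95 and 9.33. Dppa4, a nuclear protein gene, stood at 6.17 and 6.86, against 3.92 and 6.22, so day 16 did not exceed day 11, and secondary iPS cells had 10.80. Its partner Dppa2 stood at 2.28 and 3.31, against 1.69 and 2.22, and at 8.12 in secondary iPS cells. Lower without overlap were Trh, a hormone precursor gene (-1.33), the adhesion gene Icam1 (-1.08) and the amino acid transporter gene Slc7a3 (-0.31). These 3 of 23 genes are a smaller share than the 18.3% of all clusters. Without 1 array the separated genes numbered 8 (day 16), 2 (day 21), 3 (day 8) and 5 (day 11), counts that can only grow.

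The clusters of the factors usually forced into fibroblasts showed little difference apart from Sox2. Pou5f1, which encodes Oct4, stood at 13.46 and 13.42 late, against 13.04 and 13.59. Klf4 stood at 9.62 and 9.97, against 9.27 and 10.02, and Myc at 11.15 and 11.08, against 10.77 and 11.49. The groups overlapped in all 3. Whether their probes also read the introduced sequences was not analysed here.

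Of 9 DNA methylation genes 1, Dnmt3l, was separated higher, beside 0.664% of all clusters. Dnmt3l, the catalytically inactive partner of the de novo methyltransferases, stood at 6.99 and 8.78 at days 16 and 21, against 5.49 and 5.78 at days 8 and 11 (2.25, SE 0.50, adjusted p = 0.335). Both middle arrays lay near the day 0 level of 5.77, secondary iPS cells had 11.47, and the cubic curve called it higher. Its partner Dnmt3b stood at 8.77 and 8.40, against 7.81 and 8.91, and Dnmt3a at 9.25 and 9.42, against 9.07 and 9.70. Among 18 germline genes 0 were separated, and 7 were higher and 1 lower without overlap, beside 18.4% and 18.3% of all clusters. Tdrd12, a Tudor-domain gene of the piRNA pathway, stood at 6.11 and 7.26, against 5.06 and 5.65. Piwil2, a PIWI protein gene, stood at 7.90 and 6.59, against 8.21 and 9.11. Hormad1, a meiotic chromosome axis gene, stood at 3.38 and 7.04, against 4.83 and 3.56, so its mean difference rested on day 21.

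Among named genes the largest increase was that of Pla2g1b, and some of the others stood low in iPS cells. Pla2g1b, a secreted phospholipase gene, stood at 7.48 and 9.22 late, against 5.08 and 5.00 in the middle (3.31, SE 0.54, adjusted p = 0.132), and at 12.25 in secondary iPS cells. Kit, the stem cell factor receptor gene, stood at 9.01 and 9.35, against 6.54 and 7.78, with 9.85 in secondary iPS cells. Elavl4, a neuronal RNA-binding protein gene, stood at 7.71 and 7.37, against 4.63 and 5.54 (2.45, SE 0.36, adjusted p = 0.109). Secondary and primary iPS cells had 5.34 and 5.92, below both late arrays, but 1B at day 5 had 7.89. Ikzf1, a lymphoid transcription factor gene, stood at 7.52 and 6.65, against 5.15 and 5.17, and Tfap2d, an AP-2 family factor gene, at 7.02 and 6.86, against 5.19 and 4.85. On the remaining 9 arrays Ikzf1 and Tfap2d lay below both of their late arrays.

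Mrto4, a ribosome biogenesis gene, stood at 9.24 and 9.15, against 6.91 and 7.31, with 8.35 at day 0. The amino acid transporter gene Slc6a15 stood at 9.18 and 8.93, against 6.91 and 7.51, the homeobox gene Obox6 at 6.72 and 6.46, against 4.11 and 5.06, and the pepsinogen gene Pga5 at 9.65 and 9.14, against 7.57 and 7.72. In each, both late arrays lay over 1 log2 unit above both middle arrays. Pga5 stood at 8.25 and 6.25 in secondary and primary iPS cells, below its late levels.

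Housekeeping groups shifted by small amounts and had 0 separated members. Of 26 cell cycle genes 13 were higher and 1, Ccnd1, lower without overlap, beside 18.4% and 18.3% of all clusters, with a median difference of 0.31; the proliferation marker Mki67 stood at 9.18 and 9.69, against 8.38 and 9.20. Of 15 oxidative phosphorylation genes 11 were higher and 0 lower without overlap, beside the same shares, with a median of 0.28, led by Cox7a2, a cytochrome oxidase subunit gene, at 9.51 and 9.36 against 8.71 and 8.20. Of 25 chromatin genes 10 were higher and 0 lower without overlap, beside the same shares, with a median of 0.28, led by the remodeller gene Chd7 at 7.99 and 7.62 against 6.34 and 7.62, where day 21 and day 11 were all but equal. Contractile genes were highest at day 16: Cnn1, the calponin gene, stood at 9.53 and 7.34, against 6.25 and 7.40, and 0 of 12 members were separated. The Hox, glycolysis, mesoderm and neural, trophectoderm and endoderm, and CDK inhibitor and p53 lists had 0 separated members and medians between -0.11 and 0.21; that of the Hox list was 0.19 with run as a fixed block. In the endothelial list 1 of 14 genes, Cd34, was separated lower, by -1.86, beside 1.46% of all clusters.

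Days 16 and 21 also differed from each other: day 21 was over 2-fold above day 16 for 789 clusters and over 2-fold below it for 1562. The 5 named genes furthest below day 16 at day 21 were Tmprss11b, U90926, Ppbp, Ptgs2 and Ankrd1, by -2.94 to -3.42. Tmprss11b, an epithelial serine protease gene, stood at 8.26 at day 16 and 4.84 at day 21, against 5.84 at day 8 and 6.88 at day 11. Ankrd1, a muscle and YAP target gene, stood at 8.65 and 5.71, against 5.92 and 6.59. In both, day 16 stood above the other 3 arrays. Hormad1 was highest above day 16 at day 21, by 3.66; The olfactory receptor genes Olfr165, Olfr1448 and Olfr1030 followed, above day 16 by 2.66 to 2.79, with low levels of 1.00 to 2.35 at day 16. Dppa5a, a pluripotency gene, came after them, at 2.14 and 4.78, against 3.06 and 4.14.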

How the data were processed

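RNA was hybridised to Affymetrix mouse exon arrays. The deposited log2 values, 1 per transcript cluster, were made by the authors with RMA and Affymetrix Expression Console (no version stated), per the submitters' processing notes, where mm9 is also named; the log base is not stated and was taken as 2. Read depth does not apply; precision is limited by how few arrays there were. Of 23332 clusters 14996 had 1 gene symbol (14941 updated by gene identifier), 1019 several and 7317 none; a gene's brightest cluster was used. Array medians were 6.34 to 6.67.

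Using limma 3.58.1 in R 4.3.3, group means were fitted over all 13 arrays with 6 residual degrees of freedom, and days 16 and 21 contrasted with days 8 and 11, with Benjamini-Hochberg adjustment over all clusters. The fit was tested on simulated data. P-values measure only the spread between these arrays.

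The comparison and all 27 gene lists (621 entries, 518 genes measured) were chosen with earlier results of these data known. Genes named were the 12 largest separated differences each way, up to 6 members per list by size of difference, members needed for counts up to 5, the factor genes and the 5 largest differences each way of day 21 minus day 16; beside these and the cell type markers, any other gene was named after its values were seen. Promoter windows are RefSeq's.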

Additional observations from a re-analysis of the deposited data

How the results depend on the processing

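The 1 lower and 0 higher calls changed with the fit. Lower calls numbered 0 with the 4 arrays alone, the 8 arrays of the 6C series, run as a fixed block, quantile normalization or the filter on low values (a mean of at least 6), 8 with the cubic curve, 2 with arrays centred on their medians and 0 to 1 when an array was left out; the 1 call without day 11 was another cluster. Higher calls numbered 2 with the cubic curve and 1 with centring. Removing the fold threshold, a random run block and an intensity trend left the counts as they were. The 155 separated higher and 341 lower clusters numbered 27 and 205 with the filter, 4284 and 4271 with a gap of 0, 6 and 78 with a gap of 2 log2 units, and 450 to 854 and 561 to 939 with an array left out, an alternative chosen after seeing the data in which counts can only grow. Some differences turned direction: with an array left out Hormad1 lay between -0.82 (without day 21) and 2.84 and Olfr165 between -0.36 (without day 21) and 2.43, within run 2 Hormad1 was -0.18 and Dppa4 -0.043, and with run as a fixed block Ogn was 0.087 and Tgfb3 0.063. That block also turned the medians of the fibroblast matrix (0.03), fibroblast surface (0.05), TGF-beta and Nodal (0.17), BMP and Id (0.20), imprinted (0.34) and Hox (0.19) lists. The cause was not tested. No paired analysis was possible because the arrays compared share no replicate cultures in the labels.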
